A study of Mus musculus with 6 samples.

Results

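The Wnt pathway was examined at its secreted and membrane end, through all protein-coding mouse genes named Wnt, Fzd, Sfrp or Dkk with a number. GENCODE M21 on mm10 (GRCm38) holds 37 such genes among 21755 protein-coding genes. They are 19 Wnt genes, which encode the ligands, 10 Fzd genes, which encode the Frizzled receptors, 4 Sfrp genes and 4 Dkk genes, which encode secreted inhibitors. A line of a peak list was counted to a gene when its summit lay in the gene or within 10 kb of it, so membership did not depend on any measured value.

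Accessible chromatin was profiled by ATAC-seq, in which the transposase Tn5 places sequencing adapters into open DNA. The cells were white preadipocytes at day 0, before differentiation medium, which had been isolated from inguinal white adipose tissue and grown on collagen-coated plates. Libraries were made from 50000 cells by an omni-ATAC procedure, 3 from wild type cells (WT) and 3 from double knockout cells (DKO, genotype Hmgn1-/- and Hmgn2-/-), all of strain C57BL/6, and the comparison asks where chromatin differs once both HMGN nucleosome-binding proteins are lost. Donor mice were 8 to 12 weeks old. Neither the labels nor the methods tie a library to its own animal or isolation, so the p-values below measure the spread between these libraries, which may be technical. In such bulk libraries a site open in fewer cells and a site less open in every cell cannot be told apart.

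In the canonical branch, a Wnt ligand joins a Frizzled receptor to the coreceptors Lrp5 and Lrp6, and the beta-catenin that then accumulates acts in the nucleus with TCF/LEF factors. Sfrp proteins carry a Frizzled-like domain and bind Wnt ligands outside the cell, while Dkk1, Dkk2 and Dkk4 bind the Lrp coreceptors. Canonical Wnt signals, those of Wnt10b among them, keep preadipocytes from becoming fat cells, and Wnt5a and Wnt5b act mostly through other branches.

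The 37 genes held between 382 and 410 distinct lines per library, 0.127% to 0.137% of each list of 299433 to 299620 lines. Merging summits across libraries into windows that reach 250 bp to either side of a summit gave 312 windows, of which 141 had a line in all 6 libraries and 75 in only 1. Of those 141 windows 66 were intergenic, 55 lay in introns and 30 had their centre within 1 kb of a transcription start site (TSS) of a member gene. Since neighbouring ligand genes lie close together (Wnt1 and Wnt10b, Wnt6 and Wnt10a, Wnt3a and Wnt9a), 8 windows belonged to 2 genes at once. The values compared are the fold enrichment, a ratio of the cut sites at a summit to those found around it by the peak caller, and the rank of a line by p, where rank 1 is the smallest p of a list.

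The sequences below are the central bases, 100 to either side of the summit, of windows on which the levels and comparisons turn, read from the plus strand of the GRCm38.p6 reference. Capitals mark matches on either strand to letters searched for 5 factor families: CTTTGAA or CTTTGAT for TCF/LEF, TGACTCA or TGAGTCA for AP-1, GGAATG for TEAD, TGTGGTT for RUNX and TTGGCA for NFI. Shown first are the promoters of 2 receptor genes and the strongest sites of 4 ligand genes and 1 inhibitor gene, because the receptors and the ligands differed in where their strongest site lay.
Fzd7 promoter, chr1:59481910-59482110: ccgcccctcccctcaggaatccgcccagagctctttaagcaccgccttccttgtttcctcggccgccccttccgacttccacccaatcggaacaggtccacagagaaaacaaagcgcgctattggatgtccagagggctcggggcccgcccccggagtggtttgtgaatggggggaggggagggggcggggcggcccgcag
Fzd4 promoter, chr7:89404113-89404313: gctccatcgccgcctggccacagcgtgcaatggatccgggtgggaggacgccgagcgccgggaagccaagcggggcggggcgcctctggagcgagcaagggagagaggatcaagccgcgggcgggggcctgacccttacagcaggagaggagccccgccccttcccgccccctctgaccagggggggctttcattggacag
Wnt10a, intergenic, chr1:74808265-74808465: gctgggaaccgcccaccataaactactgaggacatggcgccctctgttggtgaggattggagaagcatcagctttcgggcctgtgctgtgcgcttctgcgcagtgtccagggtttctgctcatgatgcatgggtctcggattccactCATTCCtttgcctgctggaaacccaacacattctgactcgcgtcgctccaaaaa
Wnt5b intron, chr6:119493956-119494156: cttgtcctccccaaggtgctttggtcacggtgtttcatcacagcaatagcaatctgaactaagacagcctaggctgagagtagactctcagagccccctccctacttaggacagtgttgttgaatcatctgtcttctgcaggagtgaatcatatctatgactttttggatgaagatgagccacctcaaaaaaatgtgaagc
Wnt16, intergenic, chr6:22280419-22280619: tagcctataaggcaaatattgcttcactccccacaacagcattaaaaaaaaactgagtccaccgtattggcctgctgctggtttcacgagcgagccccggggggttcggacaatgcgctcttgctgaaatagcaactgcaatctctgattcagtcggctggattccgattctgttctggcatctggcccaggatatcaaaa
Wnt5a, intergenic, chr14:28533149-28533349: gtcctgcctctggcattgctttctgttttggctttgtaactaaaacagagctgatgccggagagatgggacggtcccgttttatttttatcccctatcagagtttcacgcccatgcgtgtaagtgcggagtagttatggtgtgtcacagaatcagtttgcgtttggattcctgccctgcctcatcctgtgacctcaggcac
Sfrp1 intron, chr8:23428786-23428986: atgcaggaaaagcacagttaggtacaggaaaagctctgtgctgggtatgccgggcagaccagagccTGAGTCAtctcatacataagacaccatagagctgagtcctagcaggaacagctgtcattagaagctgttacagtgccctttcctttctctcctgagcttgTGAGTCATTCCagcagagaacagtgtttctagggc

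The Fzd7 and Fzd4 promoter stretches were rich in G and C, at 66.2% and 71.6% with 15 and 17 CpG dinucleotides, whereas the Wnt5b intron stretch had 45.8% and 1 CpG. The Sfrp1 intron stretch held 2 AP-1 matches, the second of which shares letters with a TEAD match. Over the 230 windows of the 37 genes with a q under 0.01 in at least 2 libraries, 21.3% held an AP-1 match, against 23.6% of all 179248 such windows of the genome. A TEAD match was present in 15.7% against 16.3%, a RUNX match in 7.0% against 7.0%, an NFI match in 7.8% against 13.0% and a TCF/LEF match in 3.5% (8 windows) against 6.3%. By group the AP-1 share was 21.6% for Wnt, 14.0% for Fzd, 24.1% for Sfrp and 27.3% for Dkk windows. A match describes letters in these bases and does not show that a factor was bound.

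Promoters of the receptor genes were listed almost throughout in these preadipocytes, and those of the ligand genes in part. A line within 1 kb of a TSS was present in all 6 libraries for 9 of 10 Fzd genes, 9 of 19 Wnt genes, 2 of 4 Sfrp genes and 2 of 4 Dkk genes, compared with 61.0% of all protein-coding genes. The tenth receptor gene, Fzd10, lacked a line in WT replicate 2 alone. For 8 genes no library listed a line there: the ligand genes Wnt3, Wnt3a, Wnt6, Wnt8a, Wnt8b and Wnt10a, and the inhibitor genes Sfrp5 and Dkk4. Wnt7a had such a line in 1 library, Wnt10b in 2, Sfrp2 in 4, and Wnt4, Wnt9b and Dkk3 in 5. For an unlisted promoter no value is known, since each list was ordered by p, not by fold enrichment, and cut near 300000 lines. The lowest fold enrichment of a list lay between 1.49 and 1.57. A promoter line of Wnt9b in WT replicate 1 held rank 295305 at 3.21, so an unlisted promoter can lie well above those lowest values.

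**Figure D1:**
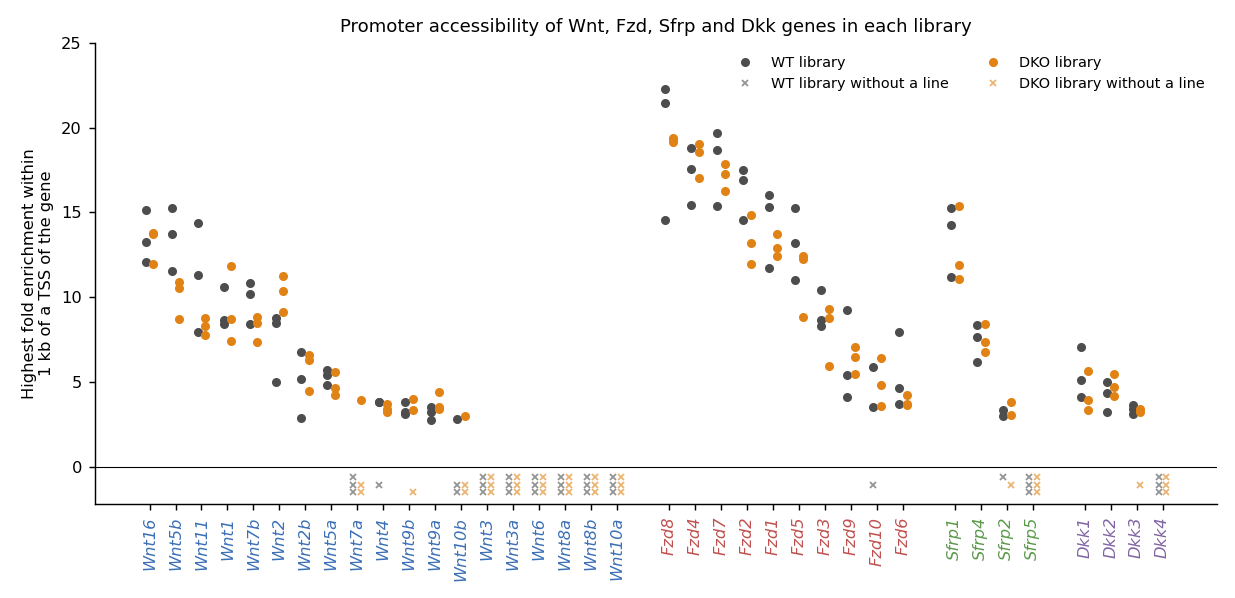
Highest fold enrichment within 1 kb of a TSS of each gene (vertical axis, ratio to local background, linear scale) in the 3 WT and 3 DKO libraries, 1 point per library, genes grouped as Wnt, Fzd, Sfrp and Dkk and ordered by their mean. Crosses below 0 mark libraries with no line there, which is the case in all 6 for 8 genes, and no Fzd gene is among those 8.

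Among the receptors, the promoter of Fzd8 had the highest level. Fold enrichment in its window, 64 bp from the TSS, was 22.3, 14.5 and 21.4 in the WT libraries and 19.4, 19.3 and 19.1 in the DKO libraries. The WT values spread on both sides of the DKO values. Fzd4, which also serves as the receptor of norrin, had 15.5, 17.6 and 18.8 in WT and 17, 19 and 18.6 in DKO in a window 142 bp from its TSS, inside an intron of the neighbouring Tmem135. The groups overlapped. Fzd7, Fzd2 and Fzd1 encode closely related receptors. The Fzd7 window, 414 bp from the TSS, stood at 19.6, 15.4 and 18.7 in WT and 16.3, 17.3 and 17.9 in DKO. Fzd2, 151 bp from its TSS, had 16.9, 14.5 and 17.5 in WT against 13.2, 14.8 and 12 in DKO, and Fzd1 had 15.3, 11.7 and 16.1 against 12.4, 13.7 and 12.9. For both genes the WT and DKO values overlapped. Fzd5, the close relative of Fzd8, had 15.3, 11 and 13.2 in WT and 12.2, 8.81 and 12.4 in DKO. The promoters of Fzd3 (mean 8.57), Fzd9 (6.29) and Fzd6 (4.65) were lower. Set among the 13269 promoters of protein-coding genes listed in all 6 libraries, Fzd8 lay at percentile 85.3, Fzd4 at 78.7, Fzd7 at 77.6, Fzd2 at 63.7 and Fzd6 at 4.83, so the receptor promoters ranged from high to low.

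By rank the Fzd7 promoter was among the best lines of each list, between 1558 and 3032 in all 6 libraries. Fzd2 had the largest difference in rank of any of the 37 genes. Its best line was at rank 4137, 5277 and 5857 in WT and at 13197, 7626 and 13025 in DKO, without overlap. The change in -log2 rank was -1.11 ± 0.34 (SE), with an unadjusted p of 0.0045 and an adjusted p of 0.123 in limma, and within the gene body alone, which leaves the promoter out, it was 0.46 in the other direction (adjusted p = 0.474). Fold enrichment at the same promoter window of Fzd2 had a log2 change of -0.14 ± 0.12 (SE, adjusted p = 0.682, limma).

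The 8 ligand genes with a promoter window listed in all 6 libraries, each taken at its strongest, ranged from percentile 54.8 of listed promoters, for Wnt16, down to 0.46, for Wnt9a. The ninth gene with a line within 1 kb of a TSS in every library, Wnt7b, had 10.2, 8.44 and 10.9 in WT and 8.47, 8.80 and 7.33 in DKO there, with overlap, but the centre of its nearest window listed in all 6 lay 1196 bp from the TSS. Wnt16, a ligand studied for its role in bone, had the highest, with 12.1, 13.2 and 15.1 in WT and 13.8, 13.7 and 12 in DKO. The window of Wnt5b lay 357 bp from an internal TSS and had 15.3, 11.6 and 13.8 in WT and 10.5, 10.9 and 8.6 in DKO, so that all 3 DKO values were below all 3 WT values, yet the log2 change after scaling was -0.26 ± 0.15 (SE, adjusted p = 0.484, limma). Wnt11 had 11.3, 7.95 and 14.4 in WT against 8.77, 8.28 and 7.78 in DKO, with overlap. The promoter of Wnt1, a canonical ligand, reached 8.63, 8.4 and 10.6 in WT and 7.43, 8.7 and 11.8 in DKO. Wnt2b had 5.19, 2.85 and 6.79 in WT and 6.31, 4.46 and 6.61 in DKO. In these 2 genes the genotypes overlapped. The strongest promoter window of Wnt5a listed in all 6 libraries lay 764 bp from a TSS. It was low, with a mean of 4.63, which placed it at percentile 4.75 of listed promoters.

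GC-rich promoters were found among both listed and unlisted genes. Of the 37 genes, 25 matched an entry of the RefSeq promoter table (GRCm38.p6, 250 bases before to 50 bases after the start), with a median GC of 74.2% for Fzd and 71.0% for Wnt promoters, compared with 52.7% for all promoters. The Wnt promoters with the most G and C were those of Wnt3a (86.3%), Wnt4 (84.3%) and Wnt9a (83.3%). Wnt3a had no line within 1 kb of a TSS, Wnt4 had one in 5 libraries at 3.25 to 3.82, and Wnt9a had one in all 6 at 2.78 to 4.42. Wnt6 (76.7%) had none.

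Every inhibitor gene had its strongest window more than 1 kb from its own TSS. The highest promoter among them was that of Sfrp1, at 14.2, 11.2 and 15.2 in WT and 11.9, 15.4 and 11.1 in DKO. Sfrp4 had 7.63, 6.17 and 8.33 in WT and 8.40, 6.76 and 6.61 in DKO. Dkk1 and Dkk2 were near the bottom of the listed promoters, with means of 4.33 and 3.62, at percentiles 3.23 and 0.716. Dkk1 had 4.09, 4.55 and 4.4 in WT and 3.35, 5.67 and 3.93 in DKO, and Dkk2 had 4.54, 3.22 and 4.14 in WT and 3.26, 3.54 and 3.04 in DKO. In none of these 4 genes did the genotypes separate.

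The strongest window of a gene lay at the promoter for the receptors and elsewhere for the other 3 groups. It was within 1 kb of the gene's own TSS in 8 of the 9 Fzd genes with a window listed in all 6 libraries, in 1 of 19 Wnt genes (Wnt11), in 0 of 4 Sfrp genes and in 0 of 4 Dkk genes, against 39.5% of all protein-coding genes. The median distance was 142 bp for Fzd, 9771 bp for Wnt, 7568 bp for Sfrp and 16673.5 bp for Dkk genes, against 4929 bp for all. The groups differ in length as well: the median gene spanned 5253 bp for Fzd and 22238 bp for Wnt, and a short gene leaves less room for a distant window. Fzd3, whose strongest window was 79 bp from its TSS, spans 70015 bp, and Fzd6, the exception among receptors at 41445 bp, spans 32155 bp. The part of gene length in the difference between groups was not tested.

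**Figure D2:**
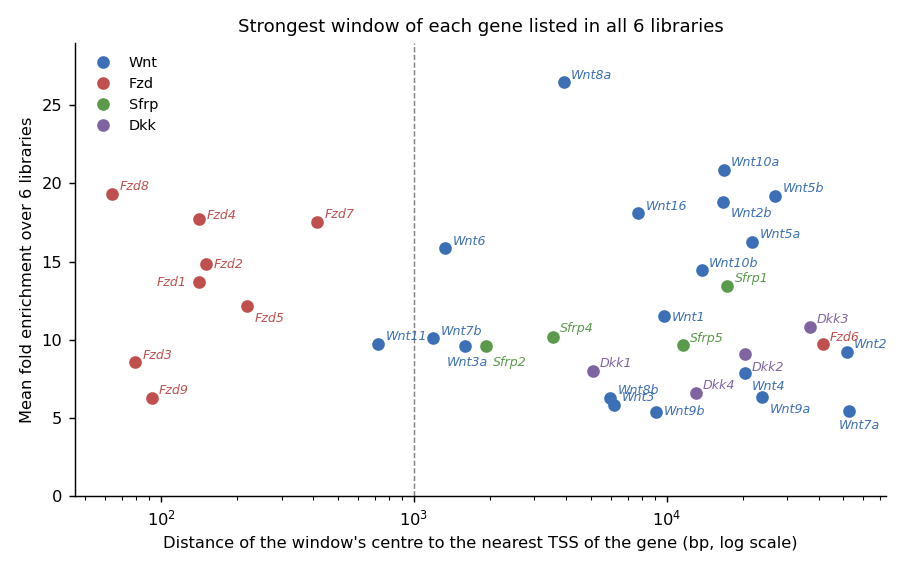
Mean fold enrichment over 6 libraries (vertical axis, linear scale) of the strongest window of each gene against the distance of its centre to the nearest TSS of that gene (horizontal axis, log scale), 1 point per gene for the 36 genes with a window listed in all 6 libraries. Left of the dashed line at 1 kb stand 8 Fzd genes and Wnt11, and the points above 15 on the right are all Wnt genes.

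The strongest distal sites lay in or within 10 kb of ligand genes, and 2 of them had a higher mean than any receptor promoter. The highest of all, with a mean of 26.5, was an intergenic window 3919 bp from the TSS of Wnt8a, a gene with no promoter line. This window had 24.9, 24.8 and 35.4 in WT and 26.2, 22.2 and 25.2 in DKO. Downstream of Wnt10a, 16849 bp from its TSS, a window reached 21.3, 19.6 and 23.4 in WT and 21.1, 21 and 18.9 in DKO. A window in an intron of Wnt5b lay 26845 bp from the nearest TSS of that gene and 14388 bp from that of Fbxl14. Its fold enrichment was 20.7, 18.6 and 24.3 in WT and 17.1, 19.2 and 15.1 in DKO. The Wnt10a and Wnt5b sequences are given above, and in all 3 windows the genotypes overlapped. Wnt2b (mean 18.8, 16757 bp from its TSS and 13209 bp from that of Gm43846), Wnt16 (18.1, 7708 bp), Wnt5a (16.3, 21844 bp) and Wnt6 (15.9, 1331 bp) followed. The strongest window of Wnt10b, at 14.4, lay 83 bp from the TSS of the neighbouring gene Arf3, so it cannot be assigned to Wnt10b by position. Of the 312 windows 7 lay within 1 kb of a TSS of a protein-coding gene outside the 4 groups. The weakest genes were Fzd10, with no window listed in all 6 libraries, and Wnt9b, Wnt7a and Wnt3, with means of 5.39, 5.45 and 5.85.

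WT and DKO libraries were compared next. As a check of the labels, both windows of Hmgn2 carried a line in each of the 3 WT libraries and were absent from the DKO lists, while the promoter of Hmgn1 kept a line in all 6, so the lists do not check that deletion. Among markers, 10 of 12 preadipocyte genes had a promoter line in all 6 libraries, and Plin1, Cidec, Lep and Ucp1 of 7 mature adipocyte genes had none in any. Of the same 7, Fabp4 had a promoter line in all 6 libraries, at 12.9 to 17.4, Cidea in 4 and Adipoq in 1. Of 5 leukocyte genes only Csf1r was listed in all 6, and the summed promoter fold enrichment of the 5 ran from 3.78 to 7.87 in WT and from 10.1 to 13.6 in DKO, without overlap. The sums of the preadipocyte, mature adipocyte, endothelial, epithelial and muscle lists overlapped between the genotypes. Of 5 endothelial genes Pecam1, Tie1 and Tek were listed in all 6 libraries, Pecam1 at 10.3 to 17.2 and Tek at 13.5 to 18.2. The highest preadipocyte promoter, that of Cebpd, had 10.5 to 13.2. Cdh5 had a promoter line in the 3 DKO libraries (3.91, 7.09 and 4.26) and in no WT library, and Emcn had none. The part of the leukocyte and endothelial genes in the results below was not tested. WT replicate 3 had the highest median fold enrichment of its list (5.87) and DKO replicate 3 the lowest (4.35). Before scaling, the median log2 change of all windows listed in all 6 libraries was -0.146, and quantile scaling brought it to 0.01.

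None of the 141 windows listed in all 6 libraries passed an adjusted p of 0.05 in limma, where 0.875% of all 103985 such windows did (614 lower and 296 higher in DKO). At an unadjusted p under 0.05 there were 13 windows, or 9.22%, against 13.1% of all windows. Of these 6 were lower in DKO (6.98% of all windows) and 7 higher (6.08% of all windows). This split depended on the scaling: without it 15 were lower and 1 higher, where 11.3% and 0.941% of all windows were. By the sign of the log2 change, 39 Wnt windows were lower and 40 higher in DKO, with 14 and 14 for Fzd, 7 and 11 for Sfrp, and 7 and 9 for Dkk. The median log2 change was 0.0046 for Wnt, 0.0018 for Fzd, 0.10 for Sfrp and 0.086 for Dkk windows, and 0.01 for all windows. In fits without 1 library these medians ran from -0.046 to 0.028 for Wnt, from -0.0011 to 0.048 for Fzd, from 0.059 to 0.14 for Sfrp and from 0.031 to 0.15 for Dkk, so the sign of the Wnt and Fzd medians turned. The median SE of a window's log2 change was 0.20. Of the wider set of 230 windows none passed either, where 0.0591% of 179248 did, and 15 had an unadjusted p under 0.05 or 6.52% against 11.8% of all, with 7 lower (6.1% of all) and 8 higher (5.68% of all), or 14 and 1 without scaling (9.31% and 2.3% of all).

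**Figure D3:**
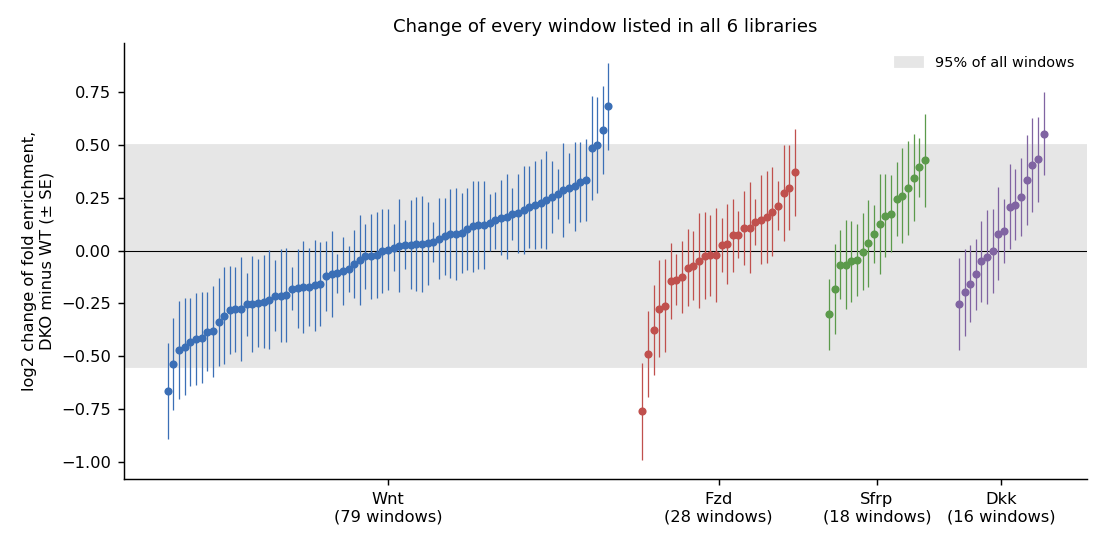
log2 change of fold enrichment, DKO minus WT after quantile scaling, with its SE (vertical axis) for each of the 141 windows listed in all 6 libraries, sorted within Wnt, Fzd, Sfrp and Dkk. The grey band holds 95% of all 103985 windows, from -0.55 to 0.50, and 5 of the 141 points lie outside it.

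Read without scaling, DKO fold enrichment was below all WT values in 18 of the 141 windows and above them in 4, where the shares of all windows were 14.3% and 2.2%. By rank the DKO lines were all worse in 13 windows and all better in 10, against 10.9% and 7.75%. The excess of lower over higher windows was thus also present among all windows, and it was smaller by rank in both.

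The window with the smallest p among the receptors lay 12276 bp from the TSS of Fzd7, downstream of the gene and 2095 bp from the TSS of the lincRNA gene Gm26813, so it cannot be assigned to Fzd7 by position. Its fold enrichment was 8.18, 3.70 and 7.63 in WT and 3.08, 3.12 and 3.60 in DKO. All DKO values were below all WT values, but WT replicate 2 stood close to them. The log2 change was -0.76 ± 0.23 (SE, unadjusted p = 0.00246, adjusted p = 0.114, limma). In fits without 1 library it ran from -1.03 (adjusted p = 0.0357) without WT replicate 2 to -0.54 (adjusted p = 0.404) without WT replicate 1, and the adjusted p was between 0.113 and 0.317 in the other 4. At the Fzd7 promoter the log2 change was 0.08 ± 0.11 (SE). A window 35787 bp from the TSS of Fzd6 and 1541 bp from that of the snoRNA gene Gm24789 had 10.8, 7.28 and 9.06 in WT and 5.51, 6.56 and 4.87 in DKO, again without overlap (-0.49 ± 0.20, adjusted p = 0.287). For Fzd4 the promoter described above had the third smallest p (0.21 ± 0.12, adjusted p = 0.443).

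Among the ligands, the promoter window of Wnt2, in the 5′ UTR and 235 bp from the TSS, had 4.98, 8.77 and 8.46 in WT and 11.2, 9.11 and 10.4 in DKO. All DKO values were above all WT values, with WT replicate 1 the farthest below. The log2 change was 0.68 ± 0.21 (SE, unadjusted p = 0.00254, adjusted p = 0.115, limma). In fits without 1 library it ran from 0.43 (adjusted p = 0.445) without WT replicate 1 to 0.94 (adjusted p = 0.0302) without WT replicate 2, and the adjusted p was between 0.107 and 0.291 in the other 4. Wnt4, a ligand of kidney and gonad development, had a pair of windows downstream of the gene that went in opposite directions. The nearer, 29238 bp from the TSS, had 4.76, 6.09 and 6.59 in WT and 7.27, 7.76 and 7.73 in DKO (0.57 ± 0.21, adjusted p = 0.209), and the farther, 31081 bp from the TSS, had 5.85, 6.28 and 5.96 in WT and 4.66, 3.45 and 3.31 in DKO (-0.54 ± 0.22, adjusted p = 0.277). The genotypes did not overlap in either, and neither change passed the adjusted threshold.

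Wnt5b, the longest of the 37 genes (chr6:119432531-119544347), held more windows than any other, 31 in all, of which 13 were listed in all 6 libraries. The part of its length in that number was not tested. Downstream of the gene, 18712 bp from its nearest TSS and 12970 bp from that of Adipor2, a window had 8.18, 9.01 and 12.3 in WT and 3.91, 8.39 and 4.91 in DKO, where DKO replicate 2 overlapped the WT values (-0.66 ± 0.23, adjusted p = 0.178). This value was -0.40 (adjusted p = 0.497) without DKO replicate 1 and -0.95 (adjusted p = 0.05) without DKO replicate 2. A window of Wnt2b 6196 bp from the TSS had 13.6, 15 and 17.5 in WT and 16.5, 17.9 and 15.7 in DKO (0.27 ± 0.12, adjusted p = 0.331). The only window of Wnt8b listed in all 6 libraries, 5982 bp from its TSS, had 5.55, 5.69 and 5.28 in WT and 5.31, 7.65 and 8.19 in DKO, with overlap (0.50 ± 0.23, adjusted p = 0.335).

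Among the inhibitors, an intron window of Dkk3, a divergent member of its family, had 6.81, 5.73 and 6.27 in WT and 7.69, 8.94 and 7.90 in DKO. The genotypes did not overlap, and the log2 change was 0.55 ± 0.20 (SE, unadjusted p = 0.00861, adjusted p = 0.197, limma). A second intron window of Dkk3 had 5.47, 3.60 and 6.75 in WT and 4.94, 6.60 and 6.37 in DKO (0.40 ± 0.22), and a window 2134 bp from the TSS of Dkk2 had 3.60, 3.56 and 4.75 in WT and 4.98, 4.57 and 4.78 in DKO (0.43 ± 0.20), both with overlap. The intron window of Sfrp1 with 2 AP-1 matches had 10.5, 10.3 and 16.7 in WT and 13.9, 16.6 and 12.8 in DKO. WT replicate 3 was the highest of all 6 libraries there, and the log2 change was 0.39 ± 0.14 (SE, adjusted p = 0.201). Another intron window of Sfrp1 had 5.39, 3.83 and 5.43 in WT and 7.07, 5.28 and 5.16 in DKO, with overlap (0.43 ± 0.22, adjusted p = 0.406). An intron window of Sfrp4 had 10.1, 11.8 and 13.8 in WT and 7.85, 9.80 and 7.69 in DKO, all DKO values being below all WT values (-0.30 ± 0.17, adjusted p = 0.449).

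The central bases of 3 windows described above, and of the Wnt3a window described next, are shown as examples without overlap between the genotypes, or with a line in DKO libraries only.
Fzd7, downstream, chr1:59494600-59494800: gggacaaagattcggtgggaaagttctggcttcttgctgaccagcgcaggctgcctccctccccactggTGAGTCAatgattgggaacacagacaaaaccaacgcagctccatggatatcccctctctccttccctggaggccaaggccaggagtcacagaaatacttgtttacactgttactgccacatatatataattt
Wnt4, downstream, chr4:137306627-137306827: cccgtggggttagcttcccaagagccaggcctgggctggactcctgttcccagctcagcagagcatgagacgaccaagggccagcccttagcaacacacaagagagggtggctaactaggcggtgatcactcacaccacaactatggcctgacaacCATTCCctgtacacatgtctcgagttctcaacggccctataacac
Dkk3 intron, chr7:112135261-112135461: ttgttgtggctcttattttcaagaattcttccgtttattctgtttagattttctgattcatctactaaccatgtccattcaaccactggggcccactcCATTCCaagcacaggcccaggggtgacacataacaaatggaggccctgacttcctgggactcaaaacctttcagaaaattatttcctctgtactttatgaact
Wnt3a intron, chr11:59263897-59264097: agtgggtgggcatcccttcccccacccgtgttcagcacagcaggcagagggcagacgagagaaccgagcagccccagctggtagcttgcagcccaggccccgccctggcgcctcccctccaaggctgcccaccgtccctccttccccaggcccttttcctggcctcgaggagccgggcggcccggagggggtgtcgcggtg
The Fzd7 stretch held 1 AP-1 match, the Wnt4 and Dkk3 stretches 1 TEAD match each, and the Wnt3a stretch, at 71.6% GC with 12 CpG, none of the 5.

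**Figure D4:**
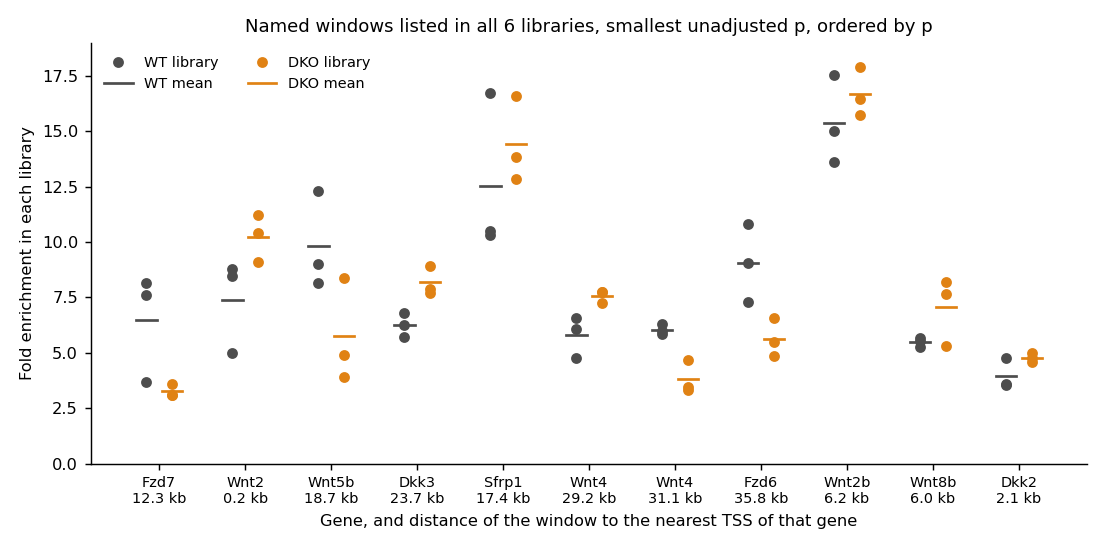
Fold enrichment in each library (vertical axis, linear scale from 0) of the 11 windows with the smallest unadjusted p among the named windows listed in all 6 libraries, ordered by p from left to right, with the gene and the distance to its nearest TSS below, 1 point per library and bars at the genotype means. The points of the genotypes separate in 6 of these 11 windows, which were picked by their p, and among all 141 windows they separate in 18 with DKO lower and in 4 with DKO higher, beside 14.3% and 2.2% of all windows.

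Presence of a line was compared as well. A window in an intron of Wnt3a, 26755 bp from the TSS, was listed in all 3 DKO libraries at 3.76, 5.10 and 3.93 and in no WT library. A window in an intron of Dkk4, 1430 bp from its TSS, was listed in all 3 WT libraries at 6.13, 3.42 and 4.11 and in no DKO library, and so was a coding exon window of Wnt10b at 3.33, 4.06 and 3.96. The best of these lines was at rank 141867 of its list, and the missing values are known only to lie below the end of the other lists. Since these 3 windows were picked for being listed in 1 genotype alone, their values are a description, with no test. Such windows made up 2 of 312 for WT and 1 of 312 for DKO, where 0.892% and 0.826% of all 246986 windows were listed in 1 genotype alone.

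Taken gene by gene, none of the 37 genes passed an adjusted p of 0.05 in limma for the highest fold enrichment, where 0.193% of 18668 genes did, or for the best rank, where 0.873% did. At an unadjusted p under 0.05, 2 genes differed in fold enrichment, against 12.1% of all, and 3 in rank, against 14.7%. With lines in the gene body alone, 7 of 36 genes differed in fold enrichment, a larger share than the 11.5% of all. Of these 4 were lower and 3 higher in DKO (6.01% and 5.48% of all, lowest adjusted p = 0.181, limma). By rank 6 differed there, 3 lower and 3 higher, again a larger share than the 13.5% of all (7.01% and 6.46%, lowest adjusted p = 0.284). With the 10 kb on either side included, the log2 change was -0.20 ± 0.09 for Wnt5b (adjusted p = 0.394) and 0.51 ± 0.23 for Wnt8b (adjusted p = 0.367). In -log2 rank, beside Fzd2, it was 0.70 ± 0.27 for Wnt8b (adjusted p = 0.219) and -0.76 ± 0.35 for Wnt5a (adjusted p = 0.321). Within the gene body alone the values of Wnt8b were -0.22 for fold enrichment and -0.07 for rank, both of the opposite sign. Summed over the 37 genes, with lines shared by 2 genes counted in each, the number of lines was 400, 409 and 394 in WT and 394, 416 and 423 in DKO, and the difference of means was 10 lines. Wnt5b had 32, 31 and 38 lines in WT and 40, 39 and 42 in DKO, and Wnt2 had 16, 17 and 16 in WT and 12, 14 and 13 in DKO. Numbers of lines carry no test here because every list was filled to the same limit.

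Of 50 other genes of the pathway, among them coreceptors, R-spondins and their receptors, destruction complex members and nuclear effectors, 41 had a promoter line in all 6 libraries and 3 in none. None passed the adjusted threshold in limma for fold enrichment or rank. At an unadjusted p under 0.05, 0 were lower and 5 higher in DKO by fold enrichment, where 6.4% and 5.75% of all genes were, and 2 were lower and 5 higher by rank, where 7.09% and 7.64% were. In both directions together the 50 genes were thus not above the 12.1% and 14.7% of all genes, and the values of those named here are a description. Nkd2, an intracellular antagonist that binds Dishevelled, had the lowest adjusted p by rank (0.0606), with a highest fold enrichment of 7.91, 5.58 and 9.98 in WT and 9.49, 10.5 and 8.77 in DKO (0.50 ± 0.15, adjusted p = 0.201). The others with an unadjusted p under 0.05 by fold enrichment were Gsk3a, a kinase of the destruction complex (0.29 ± 0.09, adjusted p = 0.20), the Dishevelled genes Dvl3 (0.31 ± 0.10, adjusted p = 0.215) and Dvl1 (0.28 ± 0.13, adjusted p = 0.391), and the casein kinase gene Csnk1a1 (0.26 ± 0.12, adjusted p = 0.394). In -log2 rank, the genes with an unadjusted p under 0.05 and a positive change were Nkd2 (0.93 ± 0.23), Dvl3 (1.55 ± 0.46, adjusted p = 0.113), Csnk1a1 (1.16 ± 0.44, adjusted p = 0.216), Dvl1 (0.95 ± 0.44, adjusted p = 0.327) and Prickle1, a gene of the planar polarity branch (0.68 ± 0.27, adjusted p = 0.246). The 2 with a negative change at that p were the TCF genes Tcf7l2 (-0.78 ± 0.31, adjusted p = 0.242) and Tcf7l1 (-0.80 ± 0.36, adjusted p = 0.31). These gene values are of the best line in the gene or within 10 kb of it, which need not belong to that gene. Within 1 kb of a TSS, the log2 change of fold enrichment was 0.47 for Nkd2, 0.34 for Csnk1a1, 0.28 for Prickle1, 0.11 for Tcf7l1 and 0.08 for Dvl3. It was 0.01 for Gsk3a, -0.04 for Tcf7l2 and -0.11 for Dvl1.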

How the data were processed

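Bulk ATAC-seq of 3 WT and 3 DKO libraries was used. Per the submitters' processing notes and the study's methods, the authors demultiplexed with bcl2fastq 2.17, trimmed with cutadapt 1.18, aligned paired reads of 50 bp to mm10 with Bowtie2 2.3.4.3, removed duplicate and mitochondrial reads and called peaks with MACS2 in each library. The list names give a p of 0.01, the Tn5 cut sites, a limit of 300000 lines and a filter on regions, whereas the methods give default settings. The deposited values used are the fold enrichment, a ratio to local background, and the -log10 p and q of each line. The depth of each library was not given in the sources used here.

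Summits were merged in order of rank into windows reaching 250 bp to either side, and a window without a line took the lowest fold enrichment of that list. That fill can lie below the true value, so changes of windows without a line in some libraries may be overstated. log2 values were quantile-normalized and fitted with limma 3.58.1 in R 4.3.3 (WT against DKO, eBayes with trend, Benjamini-Hochberg adjustment over all windows or genes tested), after a test on simulated data. Windows with a q under 0.01 in at least 2 libraries, windows listed in all 6 libraries, and the highest fold enrichment and best rank of each protein-coding gene were fitted, and a positive change means higher in DKO. Cut-site pileups at the 141 windows listed in all 6 libraries, recovered from fold enrichment and p through the MACS2 model, ran from 8 to 267, which limits the precision of weak windows.

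Members and lists were chosen with earlier results of these data known. Windows named are the strongest within 1 kb of a TSS (at most 6 per group), those with the smallest p per group, those past the threshold (none) and those listed in 1 genotype alone. The promoter windows of Fzd3, Fzd6, Fzd9, Wnt5a and Wnt9a, the promoter lines of Wnt7b, the strongest windows away from a TSS, the gene level values, the line counts of Wnt5b and Wnt2 and the other pathway genes with an unadjusted p under 0.05 were chosen after their values were seen. Beyond those given, a further marker gene, marker list and sequence are not reported here. Columns of the 6 lists were the only input, and reference sequence and RefSeq promoters came from GRCm38.p6. Other scalings, filters, window widths, gene regions, a replicate block and fits without each library were tried as alternatives.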

Additional observations from a re-analysis of the deposited data

How the results depend on the processing

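No window or gene of the 4 groups passed an adjusted p of 0.05 in limma, and that held under every alternative run except for 2. Without the trend in eBayes, 3 windows of the wider set passed, 2 lower (Dkk4 and Wnt10b) and 1 higher in DKO (Wnt3a), while 4136 windows of the whole genome passed. These are the 3 windows listed in 1 genotype alone, with the other genotype set to the lowest value of each list, so passing there is no test of a difference. Without WT replicate 2, 1 lower (Fzd7) and 1 higher window (Wnt2) of those listed in all 6 libraries passed. The counts in fits that left out 1 library ran from 0 to 1 there, and were 0 in the other 3 fits. The cause was not tested. Changes at the named windows with the smallest p of each group, listed in all 6 libraries, kept their sign under every alternative in which they could be fitted. The other named promoter windows were not followed through the alternatives. In the gene body alone, values turned to -0.22 and -0.07 for Wnt8b and 0.46 for Fzd2, as fewer lines enter there. Without scaling, group medians were -0.16 (Wnt), -0.13 (Fzd), -0.06 (Sfrp) and -0.065 (Dkk), beside -0.146 for all windows. By rank they were -0.12 for Wnt, -0.14 for Fzd, 0.09 for Sfrp and 0.16 for Dkk, beside -0.046 for all windows. Beside the windows of Wnt2 and Wnt5b described above, leaving out 1 library moved values by over 1.5 times to 0.25 (Dkk3 at 0.40), 0.32 (Fzd4 at 0.21), -0.19 (Sfrp4 at -0.30) and, for the best rank of Wnt5a, -0.48 (from -0.76), each without WT replicate 2, and for Wnt8b to 0.33 (window at 0.50) and 0.45 (rank at 0.70) without DKO replicate 3. None of these changed a call. The difference in lines was 10, ran from 4 to 18.5 without 1 library, and it was -2.67 among the 100000 best lines of each list.

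Counts over all features moved more: called windows ranged from 0 to 4136 in the wider set (106 as reported) and from 137 to 1543 in the set listed in all 6 libraries (910), with 235 without WT replicate 3, and called genes from 10 to 71 by fold enrichment (36) and from 27 to 237 by rank (163). The share of called windows higher in DKO was 32.5% after quantile scaling, 43.7% after median centring and 10.2% without scaling.

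Same-numbered WT and DKO libraries did not deviate together (r of 0.00737, -0.036 and -0.0538 across windows), so the numbers were not taken as pairs. With a replicate block no window or gene of the 4 groups passed either, with a lowest adjusted p of 0.0819 among windows listed in all 6 libraries, and the counts over all those windows were 717 lower and 376 higher. In the wider set the block left 0 of the 106 windows called over the genome, with a lowest adjusted p of 0.339 among windows of the 4 groups.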
